A study of Mus musculus with 12 samples.

Results

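The protein-coding Hox genes were followed through 12 RNA-seq libraries of mouse colon with colitis. Every gene whose symbol was Hox, a cluster letter a, b, c or d and a number was taken, which gave 39 genes of the 55335 listed. All mice were wild type and had colitis, and 4 groups of 3 libraries were sequenced. The groups were DSS colitis with thymopentin, DSS colitis with normal saline, TNBS colitis with thymopentin and TNBS colitis with normal saline. Thymopentin is a short synthetic peptide derived from the thymic hormone thymopoietin. DSS (dextran sulfate sodium) and TNBS (trinitrobenzene sulfonic acid) are chemicals used to induce colitis in rodents. Colon without colitis was not among the samples. The sources used here do not give the stretch of colon taken, nor strain, sex, age, dose or timing. Nothing in the labels says that the libraries of a group came from separate animals, so p-values measure the spread between these libraries. In bulk tissue, fewer cells of a type and less RNA per cell cannot be told apart.

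Hox genes encode homeodomain transcription factors that give cells their position along the body axis. They lie in clusters named a, b, c and d, and their order along a cluster matches the order of their expression domains from head to tail. Genes with low paralog numbers are used more towards the front, and those of group 13 are used at the tail end, including the hindgut that forms the colon. In the adult gut these domains persist, and Hoxb13 is known for its expression in the distal colon. Cdx transcription factors act upstream of Hox genes in the hindgut, and TALE proteins of the Meis, Pbx and Pknox families bind DNA together with Hox proteins.

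Promoter sequences are shown for 4 members on which the patterns turn. Hoxb8 and Hoxd4 were high in a single TNBS saline library, Hoxa9 was, with Hoxa6, called in the most comparisons, and Hoxd13 separated the colitis models. Each line holds the 250 bases before the annotated start, 5′ to 3′ on the strand of the gene, from RefSeq on GRCm38.p6. Capitals mark matches on either strand to TTTATNG, a motif of Cdx proteins, or to TCGTAAA, a motif of posterior Hox proteins. The windows lie at chr11:96281655-96281904 on the plus strand for Hoxb8, chr2:74721728-74721977 on the plus strand for Hoxd4, chr6:52227371-52227620 on the minus strand for Hoxa9 and chr2:74667975-74668224 on the plus strand for Hoxd13.
Hoxb8: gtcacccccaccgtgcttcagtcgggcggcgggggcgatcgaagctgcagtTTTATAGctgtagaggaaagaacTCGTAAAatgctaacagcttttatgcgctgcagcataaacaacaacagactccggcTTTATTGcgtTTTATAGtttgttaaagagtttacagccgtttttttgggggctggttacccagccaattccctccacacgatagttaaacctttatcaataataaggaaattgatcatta
Hoxd4: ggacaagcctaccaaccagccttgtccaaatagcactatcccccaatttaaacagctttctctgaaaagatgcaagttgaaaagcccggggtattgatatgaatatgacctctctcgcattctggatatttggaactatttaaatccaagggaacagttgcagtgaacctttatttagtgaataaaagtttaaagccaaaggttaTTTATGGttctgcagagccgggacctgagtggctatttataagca
Hoxa9: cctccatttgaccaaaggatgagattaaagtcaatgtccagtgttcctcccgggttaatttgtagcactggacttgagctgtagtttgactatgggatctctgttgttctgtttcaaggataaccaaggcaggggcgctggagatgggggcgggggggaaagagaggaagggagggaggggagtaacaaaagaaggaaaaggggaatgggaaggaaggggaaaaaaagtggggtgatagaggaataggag
Hoxd13: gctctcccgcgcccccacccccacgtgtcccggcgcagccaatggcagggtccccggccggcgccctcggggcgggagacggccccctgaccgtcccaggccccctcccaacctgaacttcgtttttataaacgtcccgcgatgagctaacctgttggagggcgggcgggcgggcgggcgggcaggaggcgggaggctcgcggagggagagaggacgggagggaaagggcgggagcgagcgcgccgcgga
The Cdx motif was in 2 of 24 windows of 22 Hox genes (8.33%), those of Hoxb8 and Hoxd4, against 9.81% of 32851 windows of all genes. The posterior Hox motif was in 1 of the 24 (4.17%), that of Hoxb8, against 0.478% of all windows. The Hoxb8 window holds 3 matches to the Cdx motif and 1 to the posterior Hox motif, none of which overlaps another. Hoxa9 and Hoxd13 have neither word in this window.

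Expression was deposited as FPKM, fragments scaled to transcript length and library size, so levels can be set side by side between genes. Of the 39 members, 18 averaged at least 1 FPKM over the 12 libraries and were tested, 16 were above 0 with a mean under 1, and 5 were listed at 0 in every library. The share reaching a mean of 1 FPKM was 46.2% of the members and 24.9% of all genes. The clusters differed in this. Of cluster a, 9 of 11 genes were tested, of cluster b 7 of 10, of cluster d 2 of 9, and of cluster c 0 of 9. Cluster c genes, used in the trunk, limbs and hair follicles, had at most 0.821 FPKM in any library (Hoxc4 in DSS saline 2), and together made up 0.0405% to 0.441% of the summed Hox FPKM. Hoxb1, Hoxc11, Hoxc12, Hoxc13 and Hoxd1 were the members listed at 0 throughout.

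The highest member by mean was Hoxb13, at 73.2 FPKM, followed by Hoxa13 at 24.7, Hoxb9 at 22.4 and Hoxa7 at 20.3. Summed over the 39 members, the Hox level was 290.3, 335 and 296 FPKM in DSS thymopentin libraries, 207, 194 and 212 in DSS saline libraries, 226, 222 and 209.6 in TNBS thymopentin libraries, and 214, 231 and 202 in TNBS saline libraries. Every DSS thymopentin library was above the other 9. Group 13, the tail end of the code, took 57.9%, 57.7% and 52.7% of that sum in DSS thymopentin libraries, 47.5%, 49.05% and 49.3% in DSS saline, 52.8%, 52.4% and 34.3% in TNBS thymopentin, and 35.5%, 47.96% and 11.1% in TNBS saline.

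Libraries that stand apart were the following. TNBS saline 3 held 0.722 FPKM of Hoxb13, and 16 of the 34 members above 0 reached their highest value there, 9 of them among the 18 tested. TNBS thymopentin 3 held the lowest Hoxb13 of its group and shared 2 features with TNBS saline 3: a low summed level of leukocyte markers (41.8 FPKM in TNBS thymopentin 3 and 45.2 in TNBS saline 3, against 112 to 357 in the other 10) and a low level of Spink1, a secreted protease inhibitor (67.4 and 80.4 FPKM, against 224 to 886). DSS thymopentin 2 held the highest value of every one of the 5 genes Hoxd9 to Hoxd13. Epithelial markers summed to between 4012 and 5991 FPKM in every library. Summed FPKM ran from 384431 to 532510 per library, genes at 1 FPKM or more from 13160 to 13805, and the mitochondrial share from 20.7% to 33.3%.

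Hoxb13, the last gene of its cluster, varied more between libraries of a group than nearly any other gene tested. Its level was 122, 109 and 104 FPKM in DSS thymopentin libraries, 52.8, 59.9 and 65.4 in DSS saline, 89.8, 87.4 and 49.4 in TNBS thymopentin, and 50.04, 86.9 and 0.722 in TNBS saline. Within DSS the groups did not overlap, and within TNBS they did. Its within-group SD on the log2(FPKM + 1) scale was 1.56, larger than for 99.8% of the 13794 genes tested, where the median SD was 0.17. That spread rests on TNBS saline 3: without it the SE of the Hoxb13 fold change in DSS was 0.25, against 1.11 with it. Hoxa13, its paralog on cluster a, which shapes the hindgut and the urogenital tract, was steady: 29.9, 27.6 and 26.6 FPKM in DSS thymopentin, 22.0, 28.1 and 23.7 in DSS saline, 24.9, 26.2 and 19.96 in TNBS thymopentin, and 23.2, 22.3 and 21.6 in TNBS saline. Its SD of 0.14 exceeded that of 35.3% of genes, and on the deposited scale it was not called in any comparison with limma. Hoxc13, a gene of the hair follicle, was listed at 0 in all libraries, and Hoxd13 is described with its neighbours below.

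The other end of the b cluster moved the opposite way to Hoxb13 among the TNBS saline libraries. All 10 measured genes of groups 2 to 8 on clusters b and d (Hoxb2 to Hoxb8, Hoxd3, Hoxd4 and Hoxd8) were highest in TNBS saline 3, next in TNBS saline 1 and lowest in TNBS saline 2, and 9 of the 10 had their highest value of all 12 libraries in TNBS saline 3. Hoxb6, used in the trunk, gave the widest range in FPKM, though Hoxb7 had the larger ratio of highest to lowest (115, against 41.3 for Hoxb6): 1.08, 0.877 and 0.931 FPKM in DSS thymopentin, 1.93, 1.68 and 1.14 in DSS saline, 0.648, 0.451 and 1.91 in TNBS thymopentin, and 2.79, 0.387 and 16.0 in TNBS saline. The summed level of Hoxb2 to Hoxb8 was 6.52, 4.88 and 7.25 FPKM in DSS thymopentin, 10.6, 10.6 and 11.2 in DSS saline, 5.02, 4.44 and 8.76 in TNBS thymopentin, and 9.34, 2.68 and 39.1 in TNBS saline. The ratio of Hoxb13 to that sum was 18.7, 22.4 and 14.4 in DSS thymopentin libraries, 4.96, 5.65 and 5.82 in DSS saline libraries, 17.9, 19.7 and 5.63 in TNBS thymopentin libraries, and 5.36, 32.4 and 0.0185 in TNBS saline libraries. The 2 DSS groups did not overlap in this ratio, and the TNBS saline libraries spanned more than all other libraries together. Hoxa2 to Hoxa7 on cluster a did not share the TNBS saline order of Hoxb2 to Hoxb8. Summed, they had 59.7, 60.3 and 54.0 FPKM in TNBS saline 1, 2 and 3. Among them only Hoxa2 was highest in TNBS saline 3.

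Hoxb9 lies between these ends of the cluster and varied less than either within groups. It had 23.96, 26.4 and 25.5 FPKM in DSS thymopentin, 15.3, 16.6 and 15.7 in DSS saline, 23.2, 23.8 and 28.4 in TNBS thymopentin, and 22.8, 21.0 and 26.6 in TNBS saline. The DSS saline libraries were the lowest 3 of the 12. Within TNBS saline its order was that of Hoxb2 to Hoxb8, and in DSS its thymopentin libraries were above its saline libraries, as for Hoxb13. Its within-group SD of 0.12 exceeded that of 24.3% of genes.

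Genes of known position in the gut varied among the same TNBS libraries. Fabp2, a fatty acid carrier of enterocytes of the small intestine and proximal gut, had 40.6, 29.9 and 29.6 FPKM in DSS thymopentin, 27.8, 34.2 and 25.0 in DSS saline, 45.2, 61.6 and 242 in TNBS thymopentin, and 275, 46.7 and 454 in TNBS saline. Atp12a, the proton and potassium pump of the colon surface, had 168, 125 and 96.1 FPKM in DSS thymopentin, 93.5, 131 and 134 in DSS saline, 151, 91.6 and 33.9 in TNBS thymopentin, and 28.99, 46.4 and 0.457 in TNBS saline. TNBS saline 3, the library with the least Hoxb13, had the most Fabp2 and the least Atp12a. Alpi, an intestinal alkaline phosphatase of the enterocyte brush border, ran the same way, with 0.165, 0.356 and 3.96 FPKM in TNBS thymopentin and 11.7, 0.927 and 23.2 in TNBS saline, and it stayed at or below 0.764 FPKM in DSS libraries. Scnn1b and Scnn1g, subunits of the sodium channel of the distal colon, were lowest of their TNBS groups in replicate 3 of both treatments: Scnn1g had 2.45, 1.68 and 0.0545 FPKM in TNBS thymopentin and 1.74, 3.13 and 0.0556 in TNBS saline. In DSS libraries Scnn1g was lower than in replicates 1 and 2 of either TNBS group, at 0.374, 0.504 and 0.468 FPKM with thymopentin and 0.324, 1.21 and 1.10 with saline, while Atp12a was not. Other genes of the small intestine (Lct, Sis, Apoa1 and Apoa4) were at or near 0 in all 12 libraries, with at most 0.184 FPKM. Fabp6, the bile acid carrier of the ileum, did not follow Fabp2, with 11.4, 22.1 and 15.3 FPKM in DSS thymopentin, 120, 56.5 and 88.8 in DSS saline, 3.45, 3.72 and 1.89 in TNBS thymopentin, and 7.71, 6.07 and 1.38 in TNBS saline. Of the 9 small intestine genes 5 were tested, and under saline 3 were called lower and 1 higher in DSS than in TNBS, where 31.5% of all tested genes were lower and 15.2% higher. Apob had 3.13, 2.06 and 6.18 FPKM in TNBS thymopentin and 2.57, 3.16 and 3.02 in TNBS saline, an order that differed from that of Fabp2 in both groups. Slc10a2 had 1.76, 1.22 and 1.01 FPKM in TNBS thymopentin and 0.718, 0.552 and 2.5004 in TNBS saline, and shared the order of Fabp2 in the saline group alone. Smooth muscle markers, summed, were also highest in replicate 3 (2713 FPKM), next in replicate 1 (1708) and lowest in replicate 2 (881) of TNBS saline, the order of Hoxb2 to Hoxb8, and markers of fat summed to 52.2 FPKM in TNBS saline 3 against 0.523 and 0 in TNBS saline 1 and 2. Their part was not tested. Whether the stretch of colon sampled had a part in these differences was not tested.

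**Figure D1:**
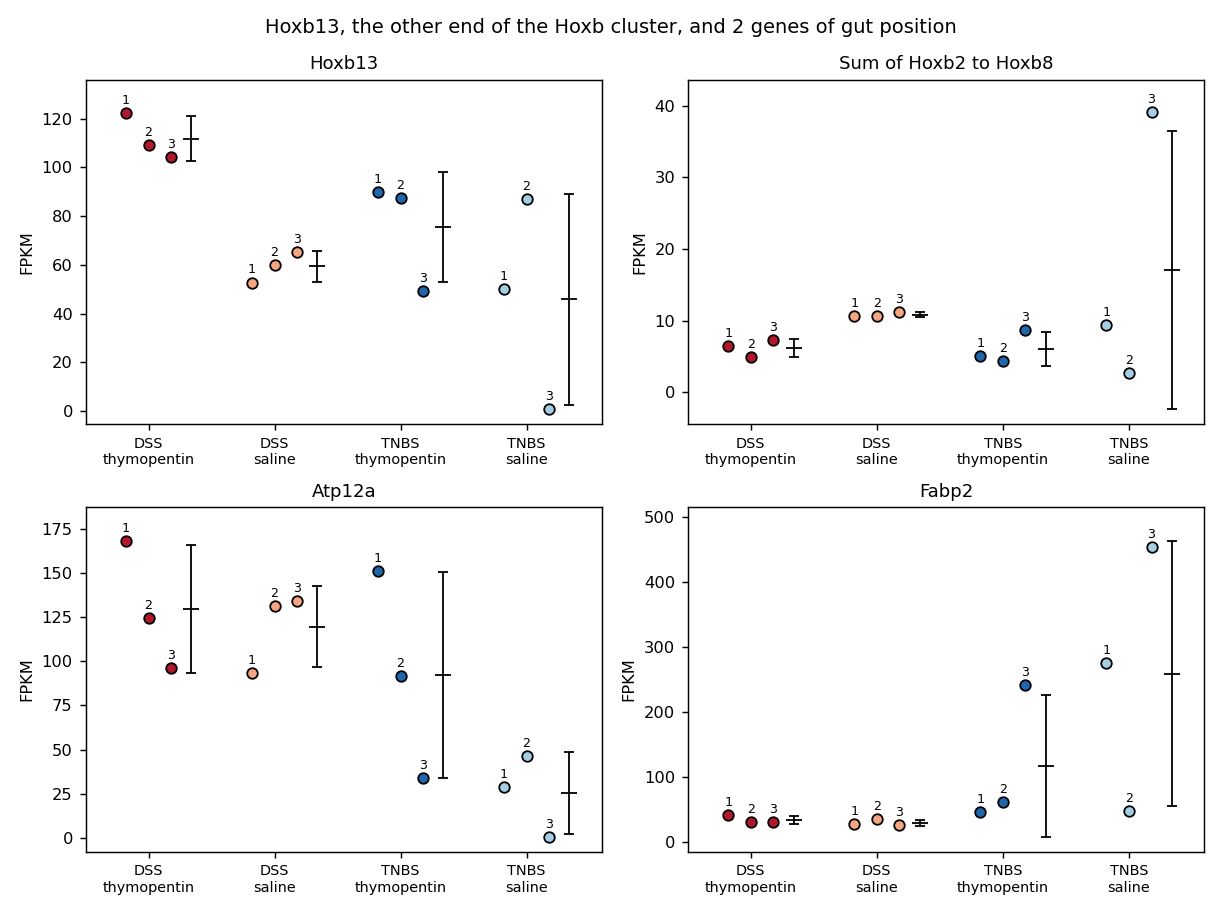
FPKM of Hoxb13, of the sum of Hoxb2 to Hoxb8, of Atp12a and of Fabp2 in each of 12 libraries, with points numbered by replicate and the bar beside each group giving its mean ± SD (n = 3). TNBS saline 3 holds 0.722 FPKM of Hoxb13, 39.1 FPKM of the Hoxb2 to Hoxb8 sum, 0.457 FPKM of Atp12a and 454 FPKM of Fabp2.

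The genes whose profile over the 12 libraries was most like that of Hoxb13 were found among 7139 genes with a mean of at least 5 FPKM, by the root mean square difference of z-scored log2(FPKM + 1). Those described here are Thbs4, a matrix thrombospondin (difference 0.165), B3gnt7, a glycosyltransferase (0.170), Tgm3, a transglutaminase (0.196), Insl5, a hormone of enteroendocrine cells of the distal colon (0.291), Atp12a (0.347), Plbd1 (0.356) and Mapre2 (0.366). Each was lowest in TNBS saline 3, as Hoxb13 was, and that library weighs heavily in the likeness. Mapre2 had 3.72 FPKM there and 7.78 to 11.1 in the other libraries. Insl5 did not share the difference of Hoxb13 in DSS, with 128, 147 and 160 FPKM in DSS thymopentin and 169, 150 and 151 in DSS saline. B3gnt7 had 187, 181 and 184 FPKM in DSS thymopentin, 109, 92.1 and 101 in DSS saline, 127, 167 and 90.02 in TNBS thymopentin, and 67.7, 113 and 6.83 in TNBS saline. Tgm3 had 478, 408 and 359.9 FPKM in DSS thymopentin, 281, 347 and 322 in DSS saline, 442, 233 and 184 in TNBS thymopentin, and 132, 261 and 2.49 in TNBS saline.

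Thymopentin was compared with saline within DSS colitis. Of the 18 tested Hox genes, 4 were higher with thymopentin and 0 lower at a limma adjusted p under 0.05, where 12.7% of all tested genes were called higher, 4.30% lower and 17.0% either way. The 4 were Hoxa6, Hoxb9, Hoxa9 and Hoxa10, all of the middle and posterior groups. The median log2 fold change was 0.26 over the 18 and 0.12 over all tested genes. The shift of all genes became 0.01 with median-ratio rescaling and 0.02 with quantile normalization, and the share of all calls that were higher became 49.8% and 52.5%, against 74.7% without them. Hox fold changes in DSS are therefore also given after median-ratio rescaling.

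Hoxa6, a gene of trunk patterning, rose most. It had 9.07, 9.17 and 8.81 FPKM in DSS thymopentin and 4.23, 2.62 and 3.16 in DSS saline, so that the groups lay far apart. The log2 fold change was 1.22 ± 0.18 (SE), with a limma adjusted p of 0.00301, and 1.11 ± 0.18 after rescaling. The authors' deposited table put Hoxa6 1.31 higher on the log2 scale at an FDR of 1.41e-06, resting on 304, 259 and 310 reads with thymopentin and 155, 89 and 107 with saline. In the GENCODE M21 models Hoxa6 overlaps Hoxa3 on its own strand and the antisense gene Hoxaas3 on the other. The sources used here do not say how reads in shared sequence were assigned, and the level of Hoxa6 is uncertain to that extent.

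Hoxb9 was 0.64 ± 0.10 higher on the log2 scale with thymopentin (limma adjusted p 0.00459) and 0.51 ± 0.11 after rescaling. Hoxb9 overlaps no other gene. Hoxa9, which acts in axial patterning and in blood progenitors, had 9.998, 12.2 and 12.2 FPKM in DSS thymopentin and 6.54, 7.64 and 6.498 in DSS saline, without overlap. Its log2 fold change was 0.66 ± 0.15 (limma adjusted p 0.0175), and 0.54 ± 0.15 after rescaling. The call was lost without DSS thymopentin 2, DSS thymopentin 3, DSS saline 1 or DSS saline 3, with an adjusted p of at most 0.064. Hoxa10, which patterns the lumbar region and the uterus, had 20.1, 22.4 and 20.2 FPKM in DSS thymopentin and 15.1, 14.9 and 15.98 in DSS saline, also without overlap. Its log2 fold change of 0.42 ± 0.11 (limma adjusted p 0.0312) became 0.29 ± 0.13 after rescaling, with an adjusted p of 0.151, and the call was also lost without any 1 of the 6 DSS libraries.

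Hoxb13 itself averaged 112 ± 9.35 FPKM in DSS thymopentin and 59.3 ± 6.33 in DSS saline (SD, n = 3). The log2 fold change of 0.91 was not called in the fit over 12 libraries, with an SE of 1.11 and a limma adjusted p of 0.606, in which the spread of the TNBS libraries enters. Without TNBS saline 3 the SE was 0.25 and the adjusted p 0.0352. With the 6 DSS libraries alone the SE was 0.11 and the adjusted p 0.00965.

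Groups that did not overlap were also counted, and they split the b cluster, which the calls of the fit over 12 libraries did not. Within DSS, 7 of the 18 tested Hox genes had all thymopentin libraries above all saline libraries (28.3% of all tested genes) and 5 had all below (11.5%). Those above were Hoxa3, Hoxa5, Hoxa6, Hoxa9, Hoxa10, Hoxb9 and Hoxb13, and those below were Hoxa11, Hoxb3, Hoxb4, Hoxb5 and Hoxb6. With the untested Hoxb2 and Hoxb8, 6 of the 7 genes Hoxb2 to Hoxb8 were lower in every thymopentin library than in any saline library, and all 7 had the lower mean. None of the 5 tested among them passed in the fit over 12 libraries. Hoxb4, a gene of hindbrain patterning and blood stem cells, had 1.16, 1.11 and 2.17 FPKM with thymopentin and 2.38, 2.61 and 2.83 with saline, and was called lower without TNBS saline 3. The authors' deposited table listed 6 Hox genes as lower with thymopentin in DSS. Its log2 fold changes were -1.13 for Hoxb2 (FDR 0.00142), -1.12 for Hoxb3 (FDR 0.00159), -1.01 for Hoxb4 (FDR 0.00796), -1.47 for Hoxb8 (FDR 0.045), -1.62 for Hoxc4 (FDR 0.00485) and -1.34 for Hoxd3 (FDR 0.0982).

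Markers of some other cell types also differed between the treatments in DSS. The summed level of 10 smooth muscle genes was 2237, 1564 and 2343 FPKM in DSS thymopentin, 4039, 3506 and 4074 in DSS saline, 1922, 1837 and 2613 in TNBS thymopentin, and 1708, 881 and 2713 in TNBS saline. Of these genes, 4 of 10 were called lower with thymopentin in DSS, where 4.30% of all tested genes were lower and 12.7% higher. Of the neuron and glia markers of the gut wall, 7 of 8 tested were called lower, and the summed level of the list was 25.6, 16.3 and 27.0 FPKM in DSS thymopentin against 39.7, 45.8 and 48.6 in DSS saline. Of 8 epithelial markers, 2 were called higher and 0 lower. Of 8 fibroblast markers, 2 were called lower and 0 higher. None of 4 tested endothelial, 6 tested leukocyte and 2 tested fat markers was called. The part of these shifts in the Hox differences was not tested.

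**Figure D2:**
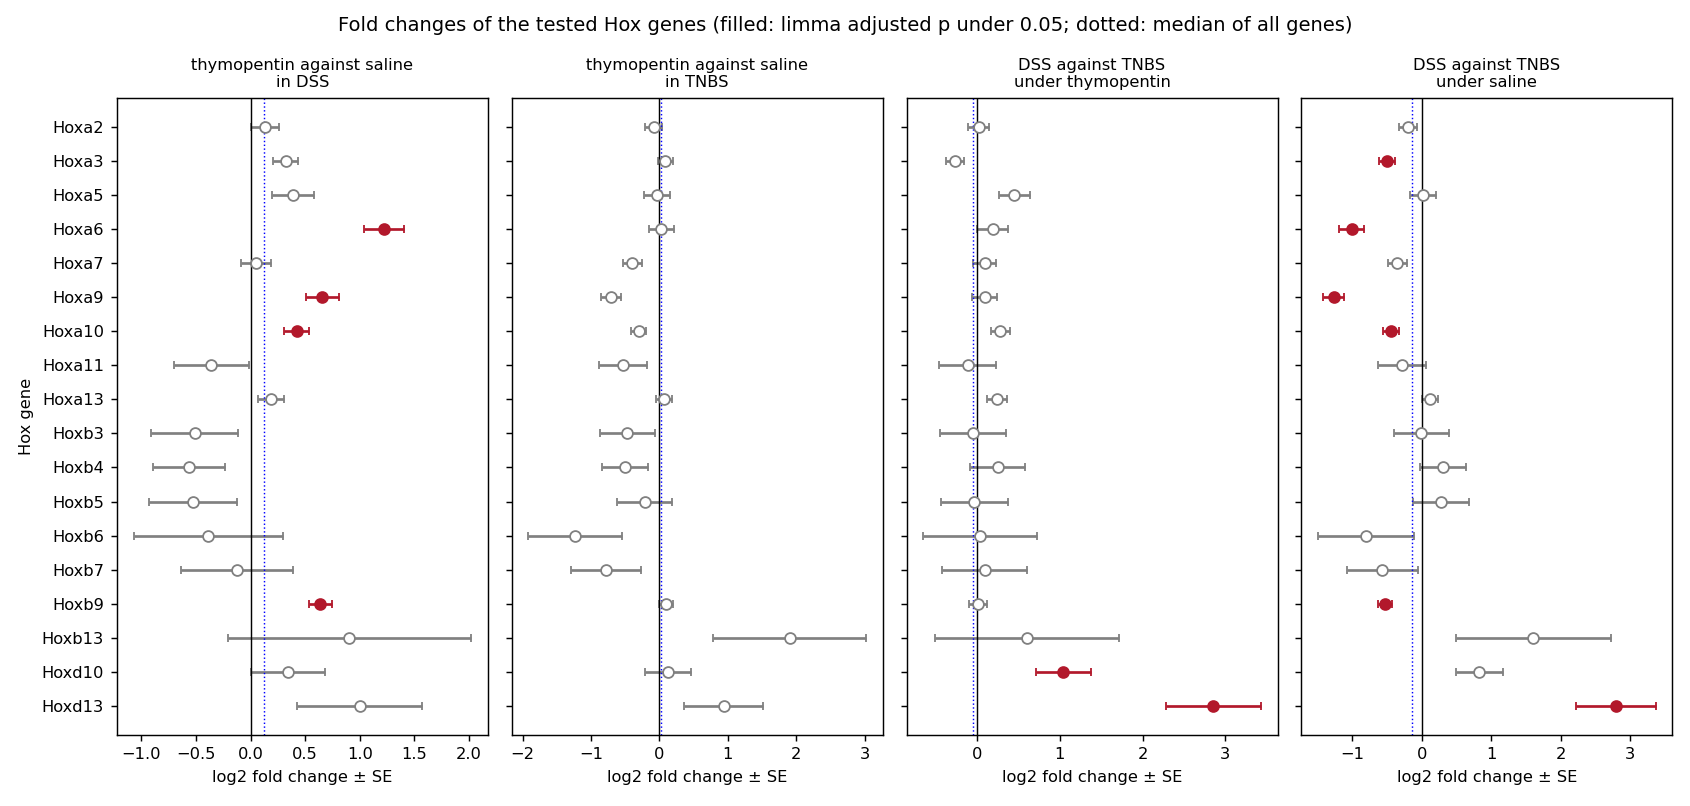
Log2 fold change ± SE of the 18 tested Hox genes in 4 comparisons, from limma on log2(FPKM + 1), with filled points at an adjusted p under 0.05 and a dotted line at the median of all tested genes. Filled points are Hoxa6, Hoxa9, Hoxa10 and Hoxb9 for thymopentin in DSS, none for thymopentin in TNBS, Hoxd10 and Hoxd13 for the models under thymopentin, and Hoxa3, Hoxa6, Hoxa9, Hoxa10, Hoxb9 and Hoxd13 for the models under saline.

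In TNBS colitis no Hox gene passed the test between thymopentin and saline. The limma fit called 0 of 18, where 0.667% of all tested genes were called, 0.283% higher and 0.384% lower, and 3 of the 18 had an unadjusted p under 0.05. These were Hoxa7, Hoxa9 and Hoxa10, each with the lower mean under thymopentin. Hoxa9 had 9.18, 10.1 and 12.9997 FPKM in TNBS thymopentin and 18.3, 14.9 and 21.1 in TNBS saline, without overlap, and a log2 fold change of -0.70 ± 0.15 (limma adjusted p 0.0715). Hoxa7 had 15.7, 18.5 and 20.8 FPKM in TNBS thymopentin and 26.2, 23.1 and 23.6 in TNBS saline, also without overlap, and a fold change of -0.40 ± 0.14 (limma adjusted p 0.247). Hoxa9 and Hoxa7 were the 2 of the 18 tested genes with all thymopentin libraries below all saline libraries (6.75% of all genes), and 0 had all above (12.1%). Weighting the libraries by their quality called 3 Hox genes lower, the same Hoxa7, Hoxa9 and Hoxa10, and leaving out TNBS saline 2 called Hoxa9 alone. With another scaling the share of all calls in TNBS that were higher was 31.6% or 33.7%, against 42.4% without it.

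The largest fold change among the Hox genes in TNBS, for Hoxb13, was set by a single library. Its log2 fold change was 1.90 ± 1.11 (limma adjusted p 0.535), and 0.14 ± 0.28 without TNBS saline 3. The median log2 fold change over the 18 was -0.15, against 0.03 over all tested genes. Of Hoxb2 to Hoxb8, 6 of 7 had the lower mean under thymopentin, and for 0 of 7 the groups did not overlap. The authors' deposited table listed 3 Hox genes in TNBS: Hoxd12, higher by 3.74 on the log2 scale with an FDR of 0.00335, Hoxd11, higher by 1.23 with an FDR of 0.228, and Hoxb6, at -1.70 with an FDR of 0.405. The Hoxd12 entry of the authors' deposited table rested on 35, 17 and 16 reads with thymopentin and 0, 0 and 3 with saline. The reads behind Hoxb6 in the authors' deposited table were 54, 36 and 151 with thymopentin and 237, 30 and 1406 with saline, so that TNBS saline 3 alone held most of them.

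The thymopentin response differed between the models for 3 Hox genes. Hoxa9, Hoxa6 and Hoxa10 passed the interaction test, 3 of 18 tested, where 5.15% of all tested genes were called, 2.73% with a positive difference and 2.42% with a negative one. With median-ratio rescaling 41.5% of all such calls were positive, and with quantile normalization 41.1%, against 53% without them. The response in DSS minus that in TNBS was 1.36 ± 0.21 on the log2 scale for Hoxa9 (limma adjusted p 0.0105), a gene that was higher with thymopentin in DSS and had the lower mean in TNBS. It was 1.20 ± 0.26 for Hoxa6 (limma adjusted p 0.0301), which had 8.50, 5.70 and 9.69 FPKM in TNBS thymopentin and 7.81, 8.75 and 6.48 in TNBS saline. The labels state no pairing, but replicate numbers were taken to pair the TNBS libraries. The block by replicate number also paired the DSS libraries, which share only a number. Under that block the call for Hoxa6 was lost, at a limma adjusted p of 0.0707. For Hoxa10 the difference of response was 0.72 ± 0.16 (limma adjusted p 0.0323), with 16.0, 16.1 and 18.98 FPKM in TNBS thymopentin and 22.6, 17.7 and 23.7 in TNBS saline. The call for Hoxa9 held in all 18 alternatives, and those for Hoxa6 and Hoxa10 were lost in 11 of 18 each, with an adjusted p of at most 0.077 and 0.088.

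The colitis models were set against each other under each treatment, and Hoxd13 gave the largest difference of any tested Hox gene. Hoxd13, which shapes the distal limb, the end of the hindgut and the anal sphincter, had 16.0, 56.8 and 25.3 FPKM in DSS thymopentin, 23.6, 7.06 and 15.3 in DSS saline, 4.29, 2.62 and 2.57 in TNBS thymopentin, and 2.80, 1.55 and 0 in TNBS saline. All 6 DSS libraries were above all 6 TNBS libraries. Its log2 fold change, DSS over TNBS, was 2.85 ± 0.57 under thymopentin (limma adjusted p 0.00601), 2.79 ± 0.57 under saline (limma adjusted p 0.00274) and 2.82 ± 0.40 averaged over treatments (limma adjusted p 0.000268). Without DSS thymopentin 2 the difference under thymopentin was 2.37 ± 0.57 (limma adjusted p 0.0253), and without TNBS saline 3 that under saline was 2.25 ± 0.54 (limma adjusted p 0.00903).

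The neighbours of Hoxd13 on the posterior d cluster were at lower levels. Like Hoxd13, they had higher means in DSS than in TNBS under either treatment. Within a group their order of libraries could differ from that of Hoxd13. Hoxd9 had 0.0889, 0.0304 and 0.513 FPKM in TNBS saline. Hoxd13 makes up most of the sum given next, except in TNBS saline 3, where Hoxd13 was at 0. Summed over Hoxd9 to Hoxd13 the level was 18.7, 69.98 and 29.0 FPKM in DSS thymopentin, 27.1, 10.03 and 19.7 in DSS saline, 5.75, 4.16 and 3.50 in TNBS thymopentin, and 3.35, 2.32 and 0.932 in TNBS saline. Of these 5 genes, 3 (Hoxd10, Hoxd11 and Hoxd13) had all DSS libraries above all TNBS libraries. Hoxd10, which patterns the limb and lumbar motor neurons, had 1.25, 5.24 and 1.36 FPKM in DSS thymopentin, 1.4995, 1.07 and 2.14 in DSS saline, 0.466, 0.778 and 0.4500 in TNBS thymopentin, and 0.341, 0.658 and 0.296 in TNBS saline. Under thymopentin its log2 fold change was 1.04 ± 0.34 (limma adjusted p 0.0423), which became 0.56 ± 0.19 without DSS thymopentin 2 (limma adjusted p 0.0715). That call was also lost with no filter, with quantile normalization, with only the groups compared, and without TNBS thymopentin 1, TNBS thymopentin 2, TNBS thymopentin 3, TNBS saline 1 or DSS saline 1, at an adjusted p of at most 0.108. Averaged over treatments it was 0.94 ± 0.24 (limma adjusted p 0.00724) and was called in all 18 alternatives. Hoxd10 and Hoxd11 overlap the transcript Gm28309 on their own strand. Hoxd11 ran from 0.776 to 3.25 FPKM in DSS libraries and from 0.0536 to 0.521 in TNBS libraries. Hoxd9 and Hoxd12 had at most 0.513 and 0.328 FPKM in TNBS libraries, and DSS libraries ran from 0.424 and 0.204 upwards, so that the models overlapped.

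**Figure D3:**
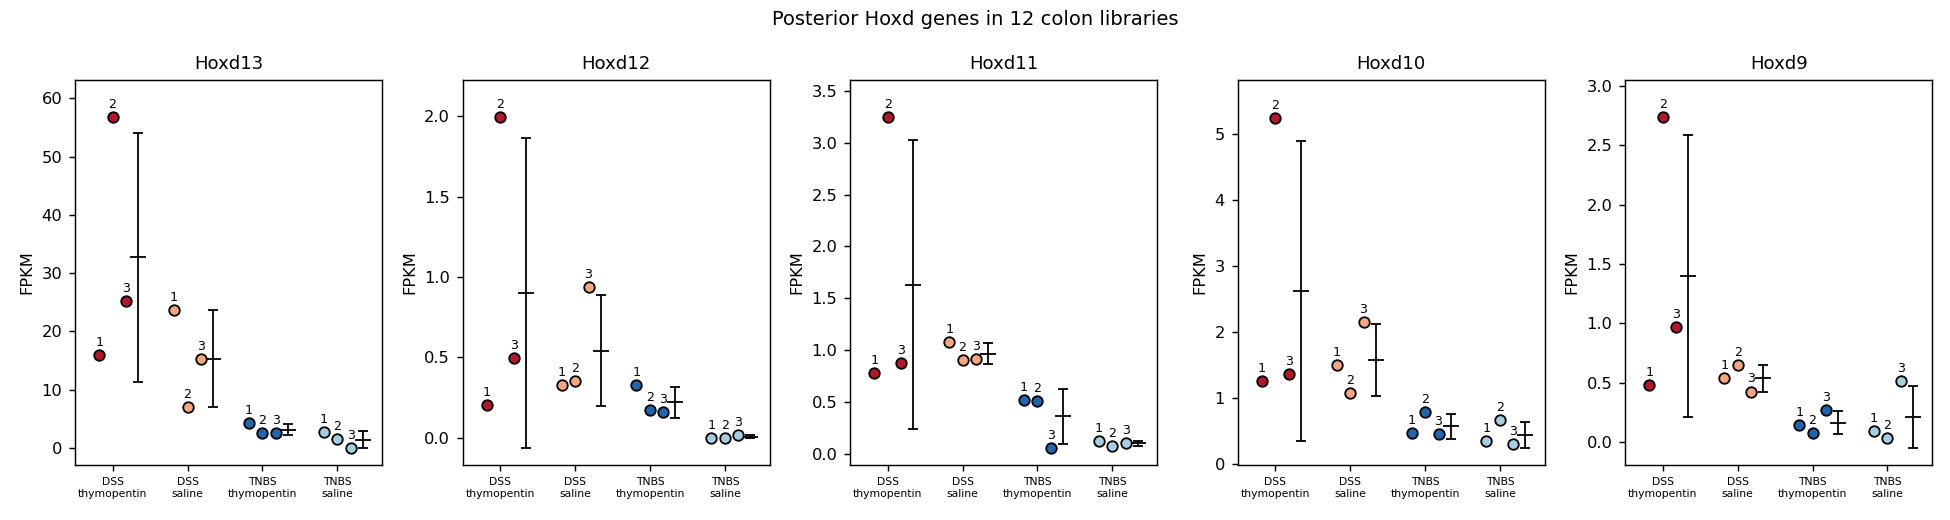
FPKM of the 5 posterior Hoxd genes in each of 12 libraries, with points numbered by replicate and the bar beside each group giving its mean ± SD (n = 3). DSS libraries lie above TNBS libraries for Hoxd13, Hoxd11 and Hoxd10, and DSS thymopentin 2 is the highest library in every panel.

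In the saline comparison 6 of 18 Hox genes were called, 1 higher and 5 lower in DSS, where 46.6% of all tested genes were called, 15.2% higher and 31.5% lower. The share of all calls that were higher in DSS was 44.8% or 43% with another scaling, against 32.5% without it. The 5 lower genes were Hoxa9 at -1.27 ± 0.15 (limma adjusted p 0.00017), Hoxa6 at -1.01 ± 0.18 (0.00141), Hoxb9 at -0.53 ± 0.10 (0.00219), Hoxa3 at -0.50 ± 0.11 (0.00451) and Hoxa10 at -0.44 ± 0.11 (0.00886). Hoxa3, which forms the thymus and parathyroid, had 3.38, 3.21 and 3.49 FPKM in DSS thymopentin, 2.52, 2.41 and 2.53 in DSS saline, 4.05, 3.53 and 5.26 in TNBS thymopentin, and 4.17, 4.06 and 3.59 in TNBS saline. The call for Hoxa10 was lost under both other scalings. Groups did not overlap for 2 tested Hox genes higher in DSS (18.8% of all genes) and 6 lower (37.7%). This comparison and that of thymopentin in DSS share the DSS saline libraries, in which Hoxa3, Hoxa6, Hoxa9, Hoxa10 and Hoxb9 each had the lowest mean of the 4 groups.

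Under thymopentin the Hox genes that were called lower in DSS under saline were not called. The fit called 2 of 18, Hoxd13 and Hoxd10, both higher in DSS, where 11.0% of all tested genes were called higher, 16.5% lower and 27.5% either way. The log2 fold change was 0.09 ± 0.15 for Hoxa9, 0.19 ± 0.18 for Hoxa6, 0.28 ± 0.11 for Hoxa10, 0.01 ± 0.10 for Hoxb9 and -0.27 ± 0.11 for Hoxa3. Groups did not overlap for 5 tested Hox genes higher in DSS (18.7% of all genes), namely Hoxa10, Hoxa13, Hoxb13, Hoxd10 and Hoxd13, and for 1 lower (27.6%), Hoxa3. Averaged over treatments 6 of 18 were called, 2 higher (19.4% of all genes) and 4 lower (34.1%), against 53.5% of all genes called either way. The lower ones were Hoxa9 at -0.59, Hoxa6 at -0.41, Hoxa3 at -0.38 and Hoxb9 at -0.26, and another scaling ended the call for Hoxb9 and, with quantile normalization, that for Hoxa6. Hoxa13, at 0.18 ± 0.08 with a limma adjusted p of 0.085, was called higher in DSS with either other scaling. The share of all calls that were higher was 46.4% with median-ratio rescaling, against 36.2% without it.

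For Hoxb13 the comparison of the models turned with 1 library. Under saline its log2 fold change, DSS over TNBS, was 1.60 ± 1.11 (limma adjusted p 0.262), and -0.16 ± 0.28 without TNBS saline 3 (limma adjusted p 0.683). Under thymopentin it was 0.61 ± 1.11 (limma adjusted p 0.712), although all 3 DSS libraries were above all 3 TNBS libraries. The median over the 18 Hox genes was 0.09 under thymopentin and -0.24 under saline, against -0.04 and -0.14 over all tested genes.

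Cell type markers also differed between the models. Under saline 8 of 10 smooth muscle markers, 8 of 8 tested markers of enteric neurons and glia and 7 of 8 fibroblast markers were called higher in DSS, as were 4 of 4 tested endothelial and 4 of 6 tested leukocyte markers, where 15.2% of all tested genes were called higher. Of 8 epithelial markers 4 were lower, where 31.5% of all tested genes were. Under thymopentin 0 of 10 smooth muscle, 0 of 8 neuron and glia, 3 of 8 fibroblast, 1 of 4 endothelial and 3 of 6 leukocyte markers were higher in DSS, where 11.0% of all tested genes were, with 2 epithelial markers higher and 1 lower. Their part in the Hox differences was not tested. The colon was also checked for tissue that borders it. Markers of squamous epithelium of the anal canal or skin summed to between 1.49 and 3.99 FPKM in all libraries. Of the markers of prostate and seminal vesicle, organs in which Hoxb13 is also expressed, Pbsn and Sbp were at 0 in every library. Svs2, Svs4 and Svs5 of the same list were above 0 in TNBS thymopentin 1 alone, at no more than 0.377 FPKM, and Spink1, also on that list, ran from 67.4 to 886 FPKM.

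Regulators and partners of Hox proteins were described from lists of their pathways. Cdx2, the homeobox gene that sets intestinal identity, had 26.9, 20.9 and 21.1 FPKM in DSS thymopentin, 8.08, 14.96 and 10.1 in DSS saline, 36.7, 44.1 and 64.5 in TNBS thymopentin, and 58.0, 33.3 and 92.0 in TNBS saline. The models did not overlap under either treatment, and the log2 fold change, DSS over TNBS, was -1.01 ± 0.34 under thymopentin (limma adjusted p 0.0493) and -2.29 ± 0.34 under saline (limma adjusted p 0.00051). Among the TNBS saline libraries Cdx2 was highest in replicate 3 and lowest in replicate 2, the order of Hoxb2 to Hoxb8. Cdx1 was 0.55 ± 0.11 higher on the log2 scale with thymopentin in DSS (limma adjusted p 0.0106). For Cdx2 that difference was 1.02 ± 0.34 and was not called (limma adjusted p 0.0629). Between the models Cdx1 did not follow Cdx2. Its log2 fold change, DSS over TNBS, was 0.41 ± 0.11 under thymopentin (limma adjusted p 0.0206) and -0.09 ± 0.11 under saline (limma adjusted p 0.515). Cdx4 was listed at 0 throughout, so that 2 of 3 Cdx genes were tested.

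Of the 9 TALE genes, 6 were tested. In DSS, thymopentin libraries had less Meis2 (-0.58 ± 0.13, limma adjusted p 0.0158) and Meis3 (-0.56 ± 0.14, limma adjusted p 0.0212), and 0 of the 6 were higher. Over all tested genes 4.30% were lower and 12.7% higher in that comparison. Under saline Meis2 (0.97), Meis3 (0.84) and Pbx3 (0.63) were higher in DSS than in TNBS on the log2 scale, and Pknox1 (-1.19) and Pbx2 (-0.58) were lower, where 15.2% of all tested genes were higher and 31.5% lower. In TNBS, 0 of 6 were called between treatments with limma. Of 8 tested genes of the retinoic acid pathway, which supplies the signal that opens anterior Hox genes, 1 was lower with thymopentin in DSS, Aldh1a3 (-0.68 ± 0.18, limma adjusted p 0.0298). None of the 8 was higher, where 4.30% of all tested genes were lower and 12.7% higher. Under saline 1 of the 8 was higher and 2 lower in DSS than in TNBS, near the shares of all tested genes (15.2% and 31.5%). Aldh1a1, a retinaldehyde dehydrogenase, was not called and had 5.14, 3.38 and 4.40 FPKM in DSS thymopentin, 4.82, 6.76 and 6.46 in DSS saline, 6.51, 6.45 and 11.4 in TNBS thymopentin, and 12.1, 2.48 and 32.7 in TNBS saline. Its order within TNBS saline was again that of Hoxb2 to Hoxb8.

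Among 8 tested genes of hindgut patterning, 4 were higher and 2 lower with thymopentin in DSS, where 12.7% of all tested genes were higher and 4.30% lower. Those higher included Ihh, the hedgehog ligand of the gut epithelium (0.82 ± 0.12 on the log2 scale, limma adjusted p 0.00251), Sox9, of crypt progenitors (0.75 ± 0.13, limma adjusted p 0.00581), and Gata6 (0.37 ± 0.08, limma adjusted p 0.0127). Those lower were the mesenchymal factors Foxf1 (-0.65 ± 0.20, limma adjusted p 0.0481) and Nkx2-3 (-0.58 ± 0.16, limma adjusted p 0.0355). Under saline 2 of the 8 genes were higher and 3 lower in DSS than in TNBS, where 15.2% and 31.5% of all tested genes were.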

How the data were processed

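Total RNA of 12 mouse colon samples was sequenced from strand-specific libraries, per the labels. The authors deposited FPKM for 55335 genes, scaled to transcript length and library size. Tools listed in the submitters' processing notes, without roles, are STAR 2.5, Cuffnorm, DESeq 1.22.1 and FastQC, and the build listed is mm9. The sources used here give neither the counting rule nor the gene models. Per the file headers, the authors deposited log2 fold changes, p-values and FDR for selected genes of each model, with log2 values per library. Raised back from log2, 7292 of 7292 low values of up to 30 reads were whole within 0.01 reads, and reads are printed from these. Reads could be recovered for selected genes only, so no count test was run.

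Genes with a mean of at least 1 FPKM were tested on log2(FPKM + 1), 13794 in all, a scale that understates the change of low genes. The 4 groups entered a single linear model in limma 3.58.1 (R 4.3.3), with an empirical Bayes trend and 8 residual degrees of freedom. Tests were two-sided, with Benjamini-Hochberg adjustment over all genes within each comparison. Alternatives were a pseudocount of 0.1, no filter, median-ratio rescaling, quantile normalization, a replicate block, only the groups compared, array weights, and leaving out each library. The fit was tested on simulated data. With 3 libraries against 3, an exact permutation test cannot give a p under 0.1. FPKM totals do not give the read depth of the libraries, which is unknown for the table of all genes.

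The labels number replicates 1 to 3 in each group. They state no pairing. Deviations of same-numbered libraries correlated at 0.124, 0.268 and 0.476 between the TNBS groups, all over 0.1, so those numbers were taken to pair the libraries. Libraries of different models also passed 0.1, at 0.121 for replicate 3 under saline and 0.109 for replicate 2 under thymopentin. A value over 0.1 therefore does not establish pairing. The main fit has no replicate block, so its p-values take no account of any pairing. Between the DSS groups the correlations were -0.136, 0.0427 and -0.14, and those libraries share only a number.

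Values in every library are given for group 13, for each Hox gene called in any comparison, and for the 4 highest by mean, and other members were added as examples after their values were seen. For each pathway list up to 4 genes are named, called ones first by p, otherwise the highest by mean, with Aldh1a1, Gata6 and other called genes of the hindgut list added. A few genes that these rules name are not reported here. The members and lists were chosen with earlier results of these data known. Overlap between genes was read from GENCODE M21, in which all 39 symbols were found: 15 overlap another gene on the same strand, 14 one on the opposite strand and 16 neither. Promoters came from a RefSeq table on GRCm38.p6. Because the files use mm9, no other coordinates are given. Python 3.11.15 with pandas 2.3.3, numpy 2.4.6 and matplotlib 3.10.9 was used.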

Additional observations from a re-analysis of the deposited data

Results flagged for a closer look

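The thymopentin response in DSS differed from that in TNBS for 3 Hox genes by the limma interaction test. The response in DSS minus that in TNBS was 1.36 for Hoxa9, 1.20 for Hoxa6 and 0.72 for Hoxa10 on the log2 scale. For Hoxa9 the log2 fold change of thymopentin over saline was 0.66 in DSS and -0.70 in TNBS. For Hoxa6 it was 1.22 in DSS and 0.03 in TNBS, and for Hoxa10 0.42 in DSS and -0.30 in TNBS. In TNBS none of the 3 was called at a limma adjusted p under 0.05.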

How the results depend on the processing

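Counts of called Hox genes moved with the setting. In TNBS, 0 were called between treatments and 3 with array weights, and leaving out 1 library gave 0 to 1. In DSS, leaving out 1 library gave 2 to 6, against 4, with 2 without DSS thymopentin 2, DSS thymopentin 3, DSS saline 1 or DSS saline 3. For DSS against TNBS under thymopentin, 2 became 1 with no filter, with quantile normalization and with only the groups compared, 4 with array weights, and 1 to 3 on leaving out 1 library. It was 1 without TNBS thymopentin 1, TNBS saline 1, DSS thymopentin 2 or DSS saline 1, and without TNBS thymopentin 2 or 3 it was 2 with Hoxa3 or Hoxa5 in place of Hoxd10. For the interaction, 3 became 1 with no filter and with quantile normalization, 5 with array weights, and 1 to 4 on leaving out 1 library. It was 1 without TNBS thymopentin 1, TNBS saline 1, DSS thymopentin 2, DSS thymopentin 3, DSS saline 2 or DSS saline 3. Under saline, 6 became 5 to 9, and averaged over treatments 5 to 8. The cause was not tested.

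Over all genes, calls in TNBS were 92, against 44 with no filter, 6 with only the groups compared and 1055 with array weights, and 41 without TNBS thymopentin 1, 43 without TNBS thymopentin 3, 53 without TNBS saline 1, 58 without DSS thymopentin 3 and 56 without DSS saline 3. In DSS they were 2346, against 3854 with array weights, 1004 without DSS thymopentin 2, 1290 without DSS thymopentin 3, 1357 without DSS saline 1 and 923 without DSS saline 3. For the models under thymopentin they were 3799, against 2427 without TNBS thymopentin 3, 2230 without DSS thymopentin 2 and 2052 without DSS thymopentin 3. For the interaction they were 710, against 355 with no filter, 2327 with array weights, 356 without TNBS thymopentin 1, 213 without TNBS saline 1, 372 without TNBS saline 2, 216 without DSS thymopentin 2, 350 without DSS thymopentin 3 and 176 without DSS saline 3. The shares of all genes called move with these counts. The replicate block gave 4 called Hox genes for thymopentin in DSS, 0 in TNBS, 2 and 6 for the models under thymopentin and saline, and 2 for the interaction, where Hoxa6 was lost. It ended no other call of a named Hox gene. Leaving out 1 library moved Hoxb13 between -0.16 and 2.68 for DSS against TNBS under saline and between -2.07 and 0.76 for the interaction, with the change of sign without TNBS saline 3. Of the other values of named genes under alternatives, 449 kept direction and side of the threshold, 49 were no longer called and 2 became called.

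The 21 members under a mean of 1 FPKM were not tested. Levels of overlapping genes, Hoxa6 and Hoxd10 among them, depend on a counting rule that is not given.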

Other observations

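Noncoding transcripts of the Hox clusters were examined as a list of 14, of which 11 were found and 6 tested. Hottip, the transcript at the posterior tip of cluster a, had 10.7, 11.8 and 11.7 FPKM in DSS thymopentin, 7.45, 3.54 and 7.66 in DSS saline, 10.1, 9.84 and 10.5 in TNBS thymopentin, and 7.44, 8.47 and 1.77 in TNBS saline, and was not called. Its thymopentin libraries were above its saline libraries in both models. Of all tested genes, 28.3% had this separation in DSS and 12.1% in TNBS. Hoxa11os, antisense to Hoxa11, was the highest of the list, with a mean of 30.5 FPKM. Hoxaas3, antisense to Hoxa3 to Hoxa7, was lower in DSS than in TNBS, at -0.90 ± 0.16 under thymopentin (limma adjusted p 0.00349) and -1.18 ± 0.16 under saline (limma adjusted p 0.000316) on the log2 scale. Hoxb5os was 1.25 ± 0.29 higher in DSS under saline (limma adjusted p 0.00549). Hotair, on cluster c, was listed at 0 throughout. Strand handling in counting is not given, so a gene and its antisense partner cannot be told apart with certainty.

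Polycomb and trithorax proteins keep Hox genes silent or active. Of 21 found, 20 were tested. With thymopentin in DSS 2 were higher, the Polycomb subunits Eed (0.47 ± 0.09, limma adjusted p 0.00924) and Ezh1 (0.38 ± 0.10, limma adjusted p 0.0342), and 1 was lower, Bmi1 (-0.31 ± 0.09, limma adjusted p 0.0415). In that comparison 12.7% of all tested genes were higher and 4.30% lower, so both counts are near those of all genes. Under saline 7 of 20 were lower and 1 higher in DSS than in TNBS, where 31.5% of all tested genes were lower and 15.2% higher, so the count of lower genes is near that of all genes. Those lower at the smallest p were Eed (-0.75 ± 0.09, limma adjusted p 0.000181) and Ezh2 (-0.91 ± 0.15, limma adjusted p 0.000846). In TNBS 0 of 20 were called between treatments with limma.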
